A study of Canis lupus familiaris with 5 samples.

Results

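The ATP-binding cassette (ABC) family was described as all genes on the array whose symbol places them in subfamilies A to G. These were 39 of 15115 genes, read from 81 of 42924 probe sets, in 5 canine lymphoid tumour lines. Each line was measured once, so no line has a replicate array. The lines 17-71 (labelled a B-lymphoid malignancy) and GL-1 (B-cell leukemia) carry a B-cell label. A T-cell label is carried by CL-1 (described as Primitive a/b T-cell leukemia), CLGL-90 (LGL leukemia) and CLL-1390 (Primitive T-cell leukemia). All 5 were cultured in RPMI with FBS, untreated, and their biotin-labelled total RNA was hybridised to an Affymetrix canine array. RNA came from whole cultures, so fewer expressing cells and less RNA per cell cannot be told apart.

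ABC proteins bind and hydrolyse ATP through a conserved pair of nucleotide-binding domains, and most of them use that energy to move a substrate across a membrane. In lymphoid tumours the family is best known for efflux pumps that expel cytotoxic drugs: ABCB1 (P-glycoprotein), the ABCC or multidrug resistance-associated proteins, and ABCG2. Other members carry cholesterol, phospholipids, bile salts, fatty acyl groups, peptides or cobalamin. Members of subfamilies E and F have no membrane-spanning part, move no substrate, and act on ribosomes and translation.

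Values are log2 intensities, so a difference of 1 is a doubling of signal. Where several probe sets measured a gene, the one with the highest mean stood for it and the others were checked against it. Levels were compared between lines for 1 probe set at a time, never between genes, because probe sets differ in how strongly they bind. As a guide to background, a value was set against the highest of 59 control probe sets for sequences that dogs lack, which read 6.39 to 6.76 on the 5 arrays. Lines were also checked by markers. T-lineage genes above that control numbered 9 of 9 in CLGL-90, 7 in GL-1, 6 in CLL-1390, 5 in CL-1 and 3 in 17-71. Of 8 B-lineage genes, 4 were above it in GL-1, 3 in 17-71 and in CLGL-90, and 2 in CL-1 and in CLL-1390. PAX5 was above it in all 5 lines, BTK in 17-71, GL-1 and CLL-1390, and BLNK in 17-71 and CLGL-90. EBF1 passed it in GL-1 and CL-1, CD79A in GL-1 alone and MS4A1 in CLGL-90 alone. CD79B and CD22 were above it in no line. The B-lineage list thus gave the B-labelled lines 3 and 4 genes and the others 2 or 3, with 17-71 and CLGL-90 level at 3. On the T-lineage list, the B-labelled GL-1 (7) came above the T-labelled CLL-1390 (6) and CL-1 (5). Neither list therefore split the lines cleanly by label.

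Profiles over the lines were flat for most of the family. Of the 39 genes, 24 were above the highest non-dog control in at least 1 line, against 75.9% of all genes, and 15 were above it in every line, against 58.8% of all genes. The median range over the lines was 0.50 for the ABC genes and 0.73 for all genes. In 29 ABC genes the range stayed under log2 1, where 62.7% of all genes did so. The 15 ABC genes never above the control by the probe set that stands for them were all among these 29. A flat background reading does not show steady expression. A range of at least log2 2 was found in 5 ABC genes, a share of 12.8%, against 13.7% of all genes, so large ranges were about as common in the family as on the array as a whole. These 5 were ABCB1, ABCG2, ABCA5, ABCA8 and ABCE1. Just inside that range of log2 2 lay ABCE1 at 2.16, and just outside it lay ABCD3 at 1.83. A single line stood at least log2 1 from every other in 3 of the 39 (ABCB1, ABCA5 and ABCA8), against 13.0% of all genes, and in 1 of the 33 that passed the filter on dim genes (ABCA5), against 13.3%.

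**Figure D1:**
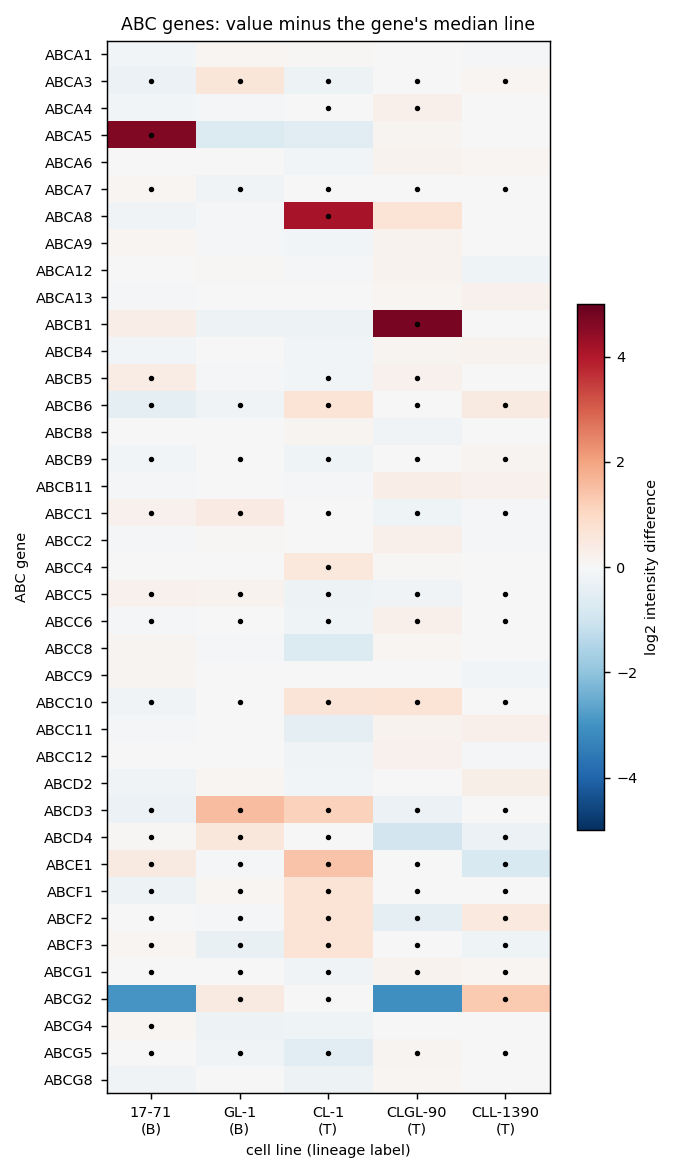
Value of each of the 39 ABC genes (rows) in each line (columns) minus the gene's median over the 5 lines, in log2 intensity; a dot marks a value above the highest non-dog control of that array. Single dark cells stand out for ABCA5 in 17-71, ABCA8 in CL-1 and ABCB1 in CLGL-90, and ABCG2 is low in 17-71 and CLGL-90.

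Among the drug efflux pumps, 2 were high in some lines and at background in others, and they were not high together. ABCB1, the P-glycoprotein that expels anthracyclines, vinca alkaloids and taxanes, read 8.96 in CLGL-90. It read 4.54 in 17-71, 4.21 in CLL-1390, 3.97 in GL-1 and 3.96 in CL-1. Only CLGL-90 was therefore above background, 2.20 over the highest non-dog control of its own array, and the other 4 lines lay at least 2.06 below theirs. The gap to the next line was 4.41, or 2.26 when values under the control were raised to it, so its size depends on background. By this gap of at least log2 2, CLGL-90 stood above every other line in 0.668% of all genes, ABCB1 being the 1 ABC gene among them.

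ABCB1 was measured by 1 probe set, whose name marks it as shared by several transcripts. Whether it also binds RNA of ABCB4, the closely related neighbouring gene that moves phosphatidylcholine into bile, was not tested. ABCB4 is annotated to 2 other probe sets. The first of them read 4.53 to 4.83 over the 5 lines and the other 3.52 to 3.82, so neither rose in CLGL-90. CLGL-90 was also the line with the strongest cytotoxic markers: 5 of 5 (GZMA, GZMB, GZMK, PRF1 and NKG7) were above the highest non-dog control, and their summed log2 level was 54.4 against 26.9 to 31.7 in the other lines. All 9 T-lineage markers were above it too, with a summed level of 100.5 against 61.9 to 76.0. The part of these markers in the ABCB1 value was not tested.

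ABCG2, the breast cancer resistance protein that expels mitoxantrone, topotecan and many other compounds, showed another pattern. It read 9.98 in CLL-1390, 9.10 in GL-1 and 8.67 in CL-1, against 5.74 in 17-71 and 5.59 in CLGL-90. The values in 17-71 and CLGL-90 were under the highest non-dog control. The second probe set of ABCG2 gave the same split, with 9.26 in CLL-1390, 8.41 in CL-1, 8.33 in GL-1, 3.64 in CLGL-90 and 3.28 in 17-71. Between the probe sets GL-1 and CL-1 changed places, as did 17-71 and CLGL-90, so the order within each of these pairs is not settled. High ABCG2 crossed the lineage labels: 1 of 2 B-labelled and 2 of 3 T-labelled lines had it.

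ABCC1, which exports glutathione and glucuronide conjugates as well as anthracyclines, was above background everywhere and varied little. It read 9.54 in GL-1, 9.30 in 17-71, 9.11 in CL-1, 8.99 in CLL-1390 and 8.88 in CLGL-90. Its second probe set put CLGL-90 clearly lowest, at 6.98, with 8.32 in CLL-1390, 8.94 in 17-71, 9.00 in CL-1 and 9.31 in GL-1. The probe sets shared their highest and lowest lines but differed in size, with ranges of 0.66 and 2.33. CLGL-90, the line with high ABCB1, thus had the lowest ABCC1 by both probe sets in the deposited values. After quantile normalization again, the main probe set was lowest in CL-1 instead, at 8.98 against 9.00 in CLGL-90. ABCG2 was lowest in CLGL-90 by 1 of 2 probe sets, with 17-71 and CLGL-90 both under the control.

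The remaining pumps were flat or at background by their main probe set. ABCC5, an exporter of cyclic nucleotides and nucleotide analogues, read 6.99 in CL-1 to 7.44 in 17-71, and ABCC10, a relative that carries taxanes, read 6.81 in 17-71 to 7.66 in CLGL-90. ABCC10 was higher in CL-1 (7.63) and CLGL-90 than in the other 3 lines, whose highest value was 6.97. ABCC4, which exports cyclic nucleotides and thiopurine metabolites, passed the control only in CL-1, at 6.97 against 6.43 to 6.48. Its other probe set was instead highest in 17-71, at 6.29 against 4.16 to 4.89, and was under the control in all 5 lines, so the probe sets of ABCC4 disagree. ABCC2, the pump of bile canaliculi, read 4.39 to 4.73, and ABCC11, known from apocrine glands, 4.06 to 4.75, all at background. In 17-71, neither ABCB1 nor ABCG2 was above the control, while ABCC1, ABCC5 and ABCC10 were.

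**Figure D2:**
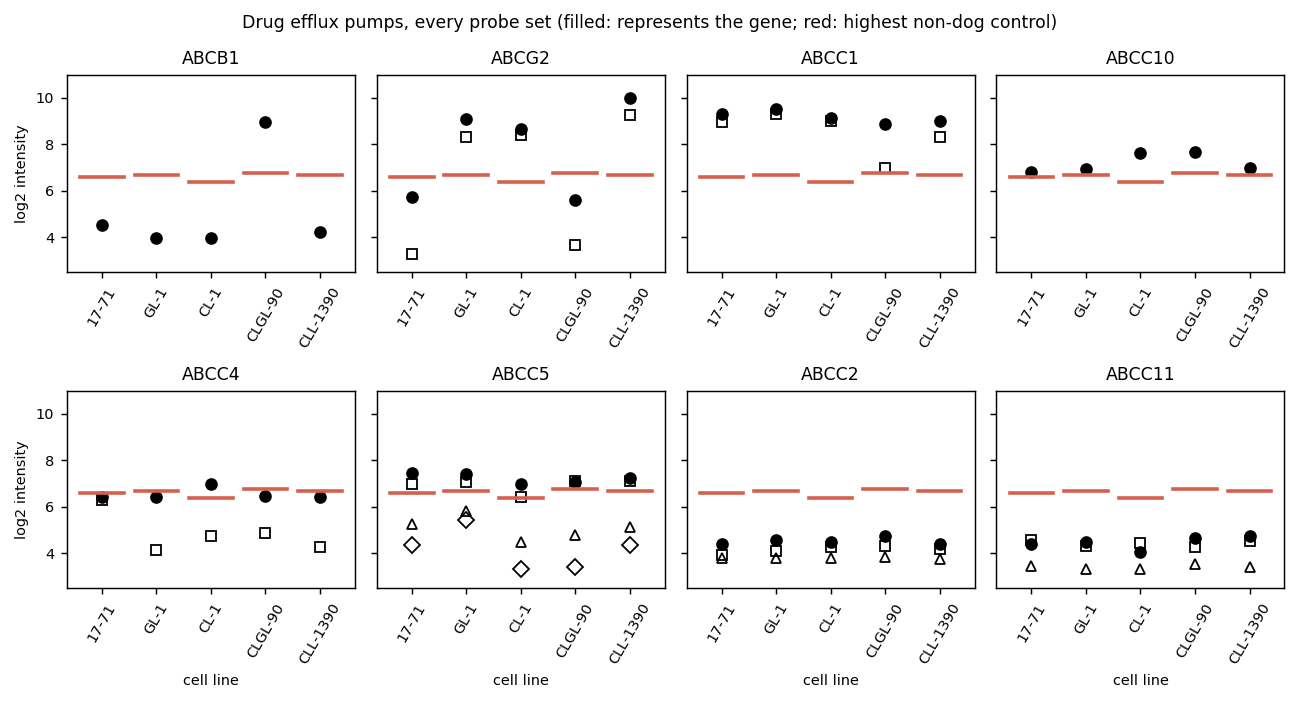
Log2 intensity (vertical axis) of every probe set of 8 drug efflux pumps in the 5 lines (horizontal axis); filled symbols represent the gene, open symbols are its other probe sets, and red bars mark that control, array by array. ABCB1 is above the bar in CLGL-90 alone, both ABCG2 probe sets in GL-1, CL-1 and CLL-1390, and both ABCC1 probe sets in every line.

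A pair of genes of the lipid-transporting subfamily A were each high in a single line. ABCA5, found in lysosomes and late endosomes and linked to cholesterol handling, read 10.64 in 17-71. It read 6.15 in CLGL-90, 6.003 in CLL-1390, 5.46 in CL-1 and 5.31 in GL-1, all below that control. The gap to the next line was 4.49, or 3.88 with values raised to the control. Its second probe set showed the same, at 8.72 in 17-71 against 3.38 to 3.70. Among all genes, 0.754% were at least log2 2 above every other line in 17-71, and ABCA5 was the 1 ABC gene of them. ABCA8, a transporter that promotes cholesterol efflux, read 7.88 in CL-1 and 4.42 in CLGL-90, 3.75 in CLL-1390, 3.67 in GL-1 and 3.57 in 17-71. Its gap of 3.46 shrank to 1.12 with values raised to the control. It rests on 1 probe set, and close relatives lie beside it on the chromosome. CL-1 was at least log2 2 above every other line in 0.959% of all genes. Of 8 fibroblast and epithelial markers, 1 (COL3A1) was above the control in CL-1, and COL3A1 was above it in all 5 lines. The other lines had 1 or 2 of the 8 above it. The summed level of the list was 43.3 in CL-1 against 44.4 to 50.9. The part of these markers in the ABCA8 value was not tested.

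The other subfamily A genes hardly varied. ABCA3, which loads surfactant lipids into lamellar bodies, was highest in GL-1, at 7.73 against 6.83 to 7.22, and above the control in all lines. ABCA7, a phospholipid transporter of phagocytes and brain, read 6.83 to 7.12. ABCA1, which hands cholesterol to apolipoprotein A-I, read 6.04 to 6.26 and passed the control in no line, as did ABCA6, ABCA9, ABCA12 and ABCA13. ABCA4, the retinal flippase, lay within 0.39 over the lines, at 6.53 to 6.92. Such flat readings near the control show neither expression nor its absence.

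Subfamily G sterol transporters were flat by their main probe sets, with 1 exception by a second one. ABCG1, which moves cholesterol to high-density lipoprotein, read 7.76 to 8.09 by the probe set that represents it. Its other probe set read 7.64 in GL-1, 5.63 in CLL-1390, 4.50 in 17-71, 4.39 in CLGL-90 and 4.25 in CL-1, a gap of 2.01 above the next line that the first did not show. ABCG4 read 6.25 to 6.62. ABCG5 and ABCG8, whose proteins pair to excrete plant sterols, read 6.67 to 7.30 and 5.65 to 5.99. ABCB11, the bile salt export pump, read 6.32 to 6.76 and was not above the control in any line.

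The position of these genes on the chromosome was also compared, because several lie side by side. In the RefSeq gene order of assembly UU_Cfam_GSD_1.0, ABCA5, ABCA6, ABCA9 and ABCA8 stand in 1 cluster. The high member differed between lines: ABCA5 in 17-71 and ABCA8 in CL-1, while ABCA6 (5.83 to 6.14) and ABCA9 (4.85 to 5.19) between them stayed at background in all 5 lines. On the other side of ABCA5, MAP2K6, a stress-kinase activator, was also highest in 17-71, at 9.86 against 7.94 to 9.24. Around ABCB1, the genes ABCB4 and RUNDC3B (4.87 to 5.50) were at background in every line. SLC25A40, a mitochondrial glutathione carrier, read 8.66 in CLGL-90 against 8.66 to 9.43 elsewhere, and DBF4, a replication kinase subunit, 10.69 against 10.60 to 11.47. None of these 4 neighbours was clearly higher in CLGL-90. Beside ABCG2, PPM1K, a mitochondrial phosphatase, read 7.21 to 8.09 and PKD2, a cation channel, 5.17 to 7.04; both were highest in CL-1, not in CLL-1390. Further out, SPP1, a secreted phosphoprotein, was highest in CLL-1390 (7.10) and CL-1 (6.67), both above the control, and read 3.67 to 5.29 in the other lines. HERC5, a ubiquitin-like ligase, was also highest in CLL-1390, at 6.68 against 4.38 to 5.05, and was under the control in every line. These neighbours were chosen after the values of the ABC genes were seen.

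**Figure D3:**
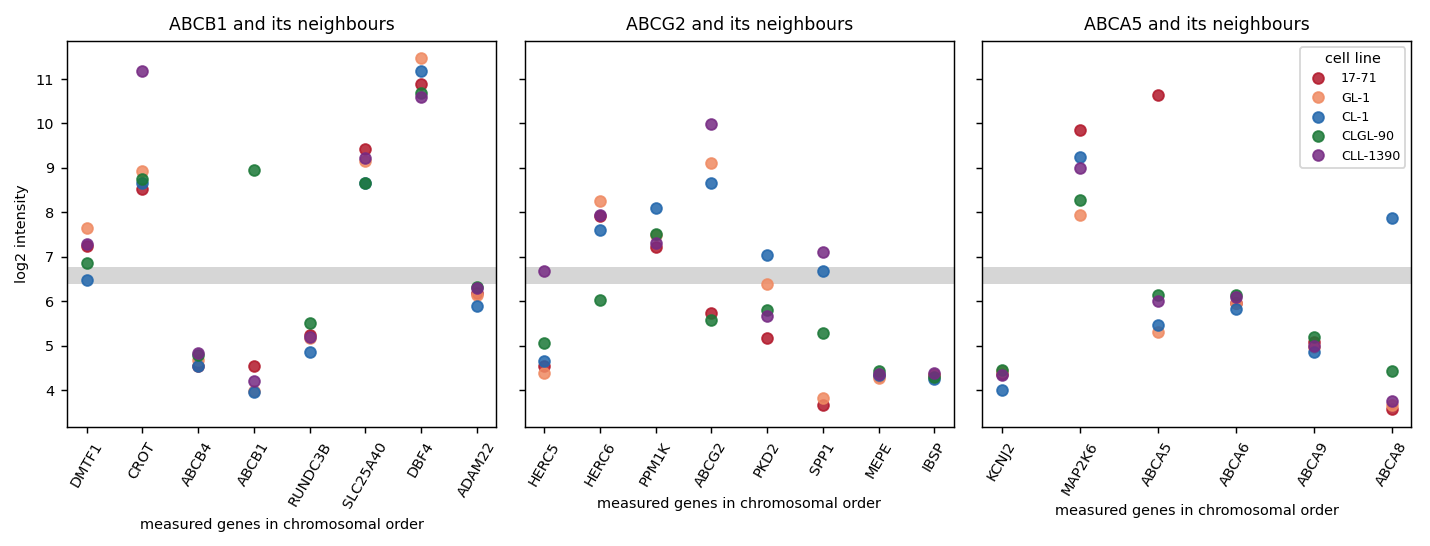
Log2 intensity of the measured genes up to 4 protein-coding genes to either side of ABCB1, ABCG2 and ABCA5, in chromosomal order (horizontal axis, not to scale); each point is 1 line and the grey band spans the highest non-dog controls of the 5 arrays. ABCB1 is high in CLGL-90, and the genes directly to either side of it, ABCB4 and RUNDC3B, are at background. Further out, CROT, SLC25A40 and DBF4 are above the band in every line. ABCA5 (17-71) and ABCA8 (CL-1), of the same cluster, are high in different lines.

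The 4 genes of subfamilies E and F were above background in every line and, by the probe sets that stand for them, highest in CL-1. ABCE1, which splits ribosomes into subunits after termination, read 11.38 in CL-1, 10.41 in 17-71, 9.97 in CLGL-90, 9.92 in GL-1 and 9.22 in CLL-1390. All 3 of its probe sets had CL-1 highest and CLL-1390 lowest, with ranges of 2.13 to 2.46. ABCF1, a partner of the initiation factor eIF2, read 11.16 in CL-1 against 10.25 to 10.59. ABCF2 read 11.40 in CL-1, 11.20 in CLL-1390 and 10.23 in CLGL-90. ABCF3, a partner of antiviral and translation factors, read 9.80 in CL-1 against 8.75 to 9.21. Of the 14 probe sets of these 4 genes that were above the control in every line, 13 were highest in CL-1. Of all such probe sets on the array, 25.4% were. Probe sets of the same gene read the same RNA, so the 14 are not independent. By genes above the control in every line, CL-1 was highest in 5 of 15 ABC genes (these 4 and ABCB6) and in 27.5% of all genes.

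The array of CL-1 also had the widest spread: its upper quartile was 8.94, against 8.70 to 8.87 on the other arrays, and the mean of its bioB spike-in controls was lowest, at 8.63 against 8.85 to 9.35. After quantile normalization again, CL-1 was still highest, with gaps to the next line of 0.85 for ABCE1, 0.40 for ABCF1, 0.10 for ABCF2 and 0.41 for ABCF3. Other genes of ribosome recycling and translation control, chosen as a list of 9, were all above the control in every line. HBS1L, a ribosome rescue factor, read 12.70 in CL-1 against 10.75 to 11.58, EIF2AK4, a stress kinase of eIF2, 10.28 against 9.04 to 10.22, and PELO, the partner of HBS1L, 9.97 in CL-1 and 10.00 in CLL-1390. None of the 9 was called between the lineage labels by limma, and 1 (PELO) had an unadjusted p under 0.05, as did 3.52% of all genes.

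Of the organelle transporters of subfamilies B and D, 3 varied by between log2 1 and 2 (ABCB6, ABCD3 and ABCD4) and 3 by less than log2 1. ABCB6, a porphyrin-related transporter of mitochondria and endolysosomes, read 9.56 in CL-1, 9.34 in CLL-1390, 8.87 in CLGL-90, 8.68 in GL-1 and 8.39 in 17-71. Both of its probe sets had CL-1 highest and 17-71 lowest. ABCD3, which brings branched and long-chain fatty acyl groups into peroxisomes, read 9.08 in GL-1 and 8.68 in CL-1, against 7.54 in CLL-1390, 7.27 in 17-71 and 7.25 in CLGL-90. Its other probe set stayed at background (4.16 to 4.74) and did not show the difference. ABCD4, which releases cobalamin from lysosomes, read 8.13 in GL-1, 7.59 in 17-71, 7.54 in CL-1, 7.26 in CLL-1390 and 6.61 in CLGL-90. GL-1 was highest and CLGL-90 lowest by 3 of its 4 probe sets; the fourth was under the control. ABCB9, a lysosomal peptide transporter, read 7.40 to 7.78, ABCB8, of the mitochondrial inner membrane, 5.67 to 5.997, and ABCD2, a peroxisomal relative, 4.48 to 4.91.

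The rest of the family varied by less than log2 1 by the main probe sets. Among regulators of potassium channels, ABCC8 read 5.60 to 6.41 and ABCC9 5.18 to 5.42. Another ABCC8 probe set read 6.81 in CLGL-90, just above the control of 6.76 on that array, against 4.80 to 5.63 in the other lines. ABCC6, of liver and kidney, read 7.83 to 8.33, ABCC12 6.15 to 6.53, and ABCB5, known from melanoma, 6.44 to 6.96. TAP1 and TAP2, ABC proteins that load peptides onto MHC class I but carry other symbols, were above background in every line, at 11.09 to 11.70 and 11.08 to 11.75.

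**Figure D4:**
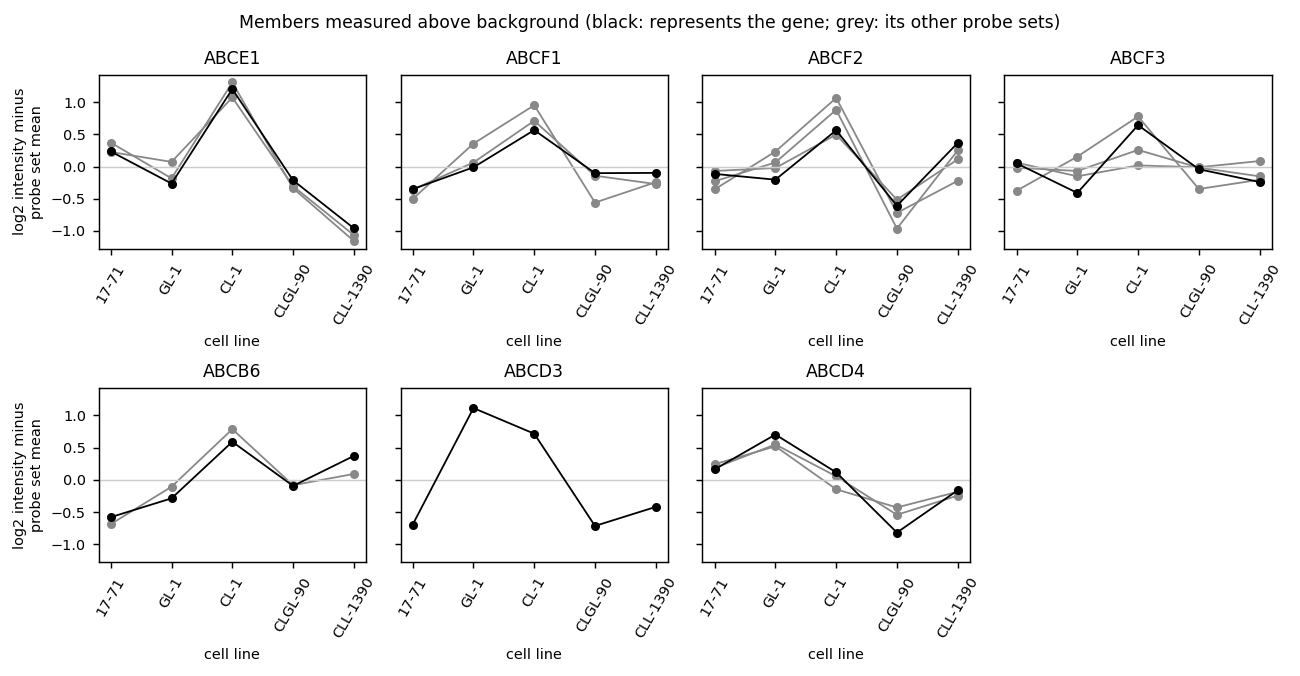
Log2 intensity of each probe set minus its own mean over the lines (vertical axis) in the 5 lines (horizontal axis), for probe sets above the highest non-dog control in at least 3 lines; black lines join the values of the probe set that represents the gene, grey lines those of the others. By the black lines CL-1 is highest for ABCE1, ABCF1, ABCF2, ABCF3 and ABCB6, and GL-1 for ABCD3 and ABCD4; 1 grey ABCF3 line is highest in CLL-1390 (7.44, with CL-1 at 7.37).

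The labels invite a comparison of B-labelled with T-labelled lines, and no ABC gene was called between them by limma. With 2 lines against 3, a gene that is not called is not shown to be alike under both labels. A gene entered the test if it reached log2 5 on at least 2 arrays, which 33 of the 39 did. ABCB1, ABCA8, ABCB4, ABCC2, ABCC11 and ABCD2 did not enter, the first pair because they were high in 1 line only. At an adjusted p under 0.05 (Benjamini-Hochberg over 14162 genes), 0 of 33 were called, where 0.00706% of all genes tested were, and the lowest adjusted p among ABC genes was 0.9999. At an unadjusted p under 0.05 there was 1 ABC gene (ABCB6), and 3.52% of all genes. The groups did not overlap in 7 of the 33, or 21.2%, against 15.4% of all genes tested. B-labelled lines were the higher in 3 of these (6.12% of all genes tested) and the lower in 4 (9.26%). The median difference was -0.03 over the ABC genes and -0.03 over all genes tested, with 15 of 33 higher in the B-labelled lines.

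ABCB6 was lower in the B-labelled lines, at 8.53 ± 0.21 (mean ± SD, n = 2) against 9.26 ± 0.35 (n = 3), a difference of -0.72 (SE 0.27, limma adjusted p = 0.9999). Both B-labelled lines lay below all 3 others. ABCC1 was at 9.42 ± 0.16 (n = 2) against 8.99 ± 0.11 (n = 3), a difference of 0.43 (SE 0.18), and ABCD4 at 7.86 ± 0.38 against 7.14 ± 0.48, a difference of 0.72 (SE 0.36). For ABCC1 the second probe set did overlap, with CL-1 at 9.00 above 17-71 at 8.94. ABCC5 differed by 0.34 (SE 0.17) and ABCC10 by -0.55 (SE 0.28), also without overlap. For ABCC10 the groups nearly touched, at 6.94 in GL-1 and 6.97 in CLL-1390, with CL-1 at 7.63 and CLGL-90 at 7.66. For ABCD4 they nearly touched too, at 7.59 in 17-71 and 7.54 in CL-1. Another ABCC5 probe set, above the control in every line, did overlap: it read 6.99 in 17-71 and 7.07 in GL-1, against 6.41 in CL-1, 7.10 in CLL-1390 and 7.12 in CLGL-90. ABCA4 and ABCA13 did not overlap either, with differences of -0.20 and -0.13 near background. ABCG2 stood at 7.42 ± 2.38 against 8.08 ± 2.25, a difference of -0.66 (SE 1.67), so lines of 1 label differed more than the labels did. Leaving out 17-71 turned the ABCG2 difference to 1.02, and leaving out CLL-1390 turned it to 0.29. ABCA5 differed by 2.10 (SE 1.60), and by -0.56 without 17-71. Some myeloid markers moved with the labels: 7 of 8 in 17-71 and 6 in GL-1 were above the control, against 2 to 4 in the other 3 lines. The summed levels were 74.0 and 70.6 against 45.2 to 47.8. LYZ, SPI1, S100A8 and S100A9 were above the control in 17-71 and GL-1 only. CYBB was above it there and in CLL-1390. CD14 passed it in every line and ITGAM in every line except GL-1. CSF1R went the other way, above it only in CL-1 and CLL-1390. LYZ was the 1 gene called between the labels (limma adjusted p = 0.0227). The part of the myeloid markers in these differences was not tested.

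**Figure D5:**
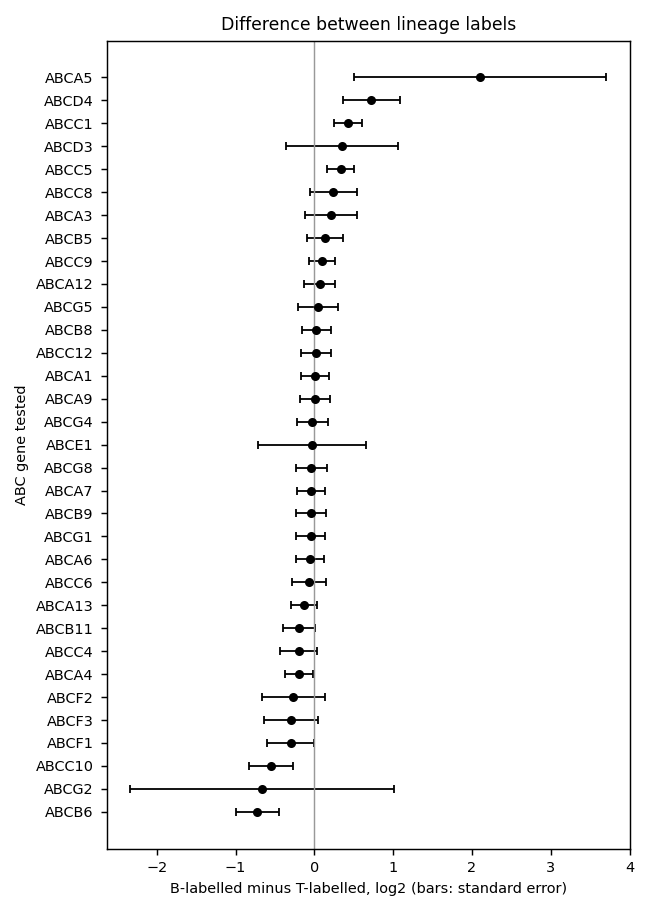
Difference of B-labelled (n = 2 lines) minus T-labelled (n = 3 lines) means, in log2 intensity (horizontal axis), for the 33 ABC genes tested (vertical axis); bars are limma standard errors. Most genes lie close to 0, and ABCA5 and ABCG2 have the widest bars, with standard errors of 1.60 and 1.67.

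Genes that act beside the transporters were read from lists, and none passed the test over all genes. At an unadjusted p under 0.05, 1 of 19 regulators tested was higher in the B-labelled lines and none lower, where 3.52% of all genes passed in either direction. Among them PPARG, a lipid-sensing nuclear receptor, read 10.21 in CL-1 against 4.95 to 5.16 in the other lines, so it was high in the same line as ABCA8. MYLIP, a sterol-induced ubiquitin ligase, read 9.50 in CLL-1390, 9.37 in CLGL-90, 8.51 in 17-71, 7.204 in GL-1 and 6.23 in CL-1. AHR, the aryl hydrocarbon receptor, read 8.38 in GL-1 and 7.76 in 17-71 against 6.33 to 6.69, with a limma adjusted p of 0.804. The sterol receptors varied less: NR1H3 read 6.32 to 7.30 and NR1H2 9.37 to 10.25.

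Glutathione genes supply the conjugates that ABCC pumps export, and the median range of the 13 on the array was 1.90. None of them had an unadjusted p under 0.05, where 3.52% of all genes did. GGT1, which breaks down extracellular glutathione, read 10.48 in CLGL-90, the line with high ABCB1, against 6.38 to 6.87 in the other lines. MGST2, a membrane glutathione transferase, read 10.24 in GL-1 against 5.77 to 6.49. GSTK1, a mitochondrial and peroxisomal transferase, read 9.75 to 10.48 in GL-1, CLGL-90 and CLL-1390 against 6.62 in 17-71 and 6.05 in CL-1. GSTO1, the gene of the list with the widest range, was at background in 17-71 alone, at 4.65 against 10.95 to 12.21.

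Drug uptake carriers, drug targets and other resistance genes were above background in most lines. At an unadjusted p under 0.05, where 3.52% of all genes passed, there were none of 11 carriers. Of the 8 drug targets and other resistance genes, 1 (TOP2A) passed and was higher in the B-labelled lines. SLCO3A1, an organic anion carrier, read 11.29 in CL-1 and 11.28 in CLGL-90 against 7.38 to 8.55. SLC29A1, the nucleoside carrier that admits cytarabine and gemcitabine, was lowest in CLGL-90, at 8.86 against 10.08 to 11.40. SLC31A1, a copper carrier also linked to platinum drugs, read 9.53 in CL-1 against 7.53 to 8.50. MGMT, which repairs alkylated guanine, read 10.18 in CL-1 against 6.54 to 7.64. TOP2B, a target of anthracyclines, read 13.04 in 17-71 and 11.14 in CLGL-90, with 12.02 to 12.29 in the other 3. MVP, a vault protein, had the widest range among the drug targets and other resistance genes, at 5.16 in CL-1 against 11.34 to 12.70.

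Partners of the organelle transporters completed the lists. At an unadjusted p under 0.05, 2 of 9 mitochondrial genes (FECH and ISCA2) were lower in the B-labelled lines, and of 11 peroxisomal and cobalamin genes 1 was higher (PEX5) and 1 lower (ACAA1), beside 3.52% of all genes. FECH, which inserts iron into protoporphyrin to form haem, read 9.71 in 17-71 and 10.44 in GL-1 and 11.61 to 12.95 elsewhere. The difference of -2.10 (SE 0.49) was not called. NFS1, the cysteine desulfurase of iron-sulfur assembly, read 12.70 in CL-1 against 10.52 to 11.19, and ALAS1, the first enzyme of haem synthesis, 11.48 in 17-71 against 9.59 to 10.59. In the peroxisomal list, catalase (CAT) was highest in GL-1, the line with the highest ABCD3, at 13.70 against 10.84 to 12.46. In CL-1, where ABCD3 was also high, CAT read 11.48, below CLGL-90 (12.38) and CLL-1390 (12.46). PEX5, the import receptor, read 10.82 in 17-71 against 8.63 to 9.56, and ACAA1, a thiolase, differed by -1.43 (SE 0.29) without being called.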

How the data were processed

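Total RNA of 5 lines was measured on 1 array each, and no p-value covers variation within a line. Deposited values were taken as log2 intensities from their range and the usual output of GCRMA, which the submitters' processing notes name; its version is not given in the sources used here. The table held 43035 probe sets. Of these, 111 controls were set aside, 29254 of the rest had 1 gene symbol, 439 had several, and 13231 had none in the annotation. Of the 39 ABC genes, 38 were found by gene ID in the RefSeq table. Of 15115 genes, the 14162 with log2 5 or more on at least 2 arrays entered a two-sided test by limma (version 3.58.1, under R version 4.3.3; lmFit, then eBayes) with Benjamini-Hochberg adjustment. The code was tested on simulated data. Single lines were described without a test. All 5 values were given for ABC genes with a range of at least log2 2 and for ABCB1, ABCC1 and ABCG2, and also for others chosen after their values were seen; of each partner list, up to 3 genes of widest range were named, and more chosen after their values were seen. Members and lists were chosen with earlier results of these data known. The number of arrays limits precision.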

Additional observations from a re-analysis of the deposited data

How the results depend on the processing

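With 1 array per line, no alternative supplies replicate error, and differences against lines at background depend on the floor. The count of all genes called between the labels, 1 in limma (498 at an unadjusted p under 0.05), was 9 with a filter at log2 7, and 8 after quantile normalization again and with arrays centred on their medians. It was 10 with a trend and robust prior, 3 with the mean of a gene's probe sets, 11 with the most variable probe set, and 0 both with CLGL-90 as its own group (622 unadjusted) and without any 1 line (474 to 769 unadjusted). No ABC gene was called in any of these 14 alternatives. Their median difference ran from -0.06 to 0.02, positive with CLGL-90 as its own group or left out. The count of ABC genes with a range of at least log2 2 rose from 5 to 10 with the most variable probe set, which added ABCC1, ABCC4, ABCC5, ABCC8 and ABCG1, and was 3 to 5 when 1 line was left out; without CL-1 it was 3, as ABCA8 and ABCE1 dropped out. The count above background (24) ran from 20 to 32. Tested ABC genes with a line at least log2 1 from every other numbered 1 (ABCA5; 13.3% of all genes tested). Under alternatives chosen after seeing the data they numbered 3 with no filter (adding ABCA8 and ABCB1), 2 with arrays centred on their medians (adding ABCE1), 0 with the mean of a gene's probe sets, 3 with the most variable probe set, and 1 to 3 without 1 line. The difference of ABCE1, -0.03, turned to 0.13 with the mean and 0.16 with the most variable probe set, and ran from -0.51 to 0.57 without 1 line, being positive without CL-1 (0.57) and without GL-1 (0.22). Without 1 line, ABCA5 ran from -0.56 to 4.77, and ABCG2 from -2.34 to 1.02, being positive without 17-71 (1.02) and without CLL-1390 (0.29). That of ABCC1 kept its sign, from 0.31 to 1.03. ABCB1 and ABCA8 were fitted with no filter only, at -1.45 and -1.73. The causes of these changes were not tested. No paired analysis was possible because each line was measured once and the labels give no replicate numbers.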

Other observations

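Some genes near 2 further members differed between the lines. Next to ABCC4, CLDN10 read 6.76 to 7.27 and was lowest in CL-1. Further out, DZIP1, a cilium protein, read 10.99 in CL-1 against 6.56 to 8.53. UGGT2, a folding sensor of the endoplasmic reticulum, read 8.78 in CL-1 and 7.63 in 17-71 against 4.89 to 5.01. By the probe set that represents it, ABCC4 was also highest in CL-1, at 6.97. Near ABCD3, GCLM, the regulatory subunit of glutathione synthesis, read 11.92 in CL-1 and 10.80 in GL-1, the pair of lines with high ABCD3, against 9.49 to 10.46. Near ABCB4, CROT, a peroxisomal carnitine transferase, read 11.18 in CLL-1390 against 8.53 to 8.93. These genes were chosen after their values were seen.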
